A study of Homo sapiens with 8 samples.

Results

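The genes described here are 10 cytosolic and mitochondrial heat shock chaperones, HSPA1A, HSPA1B, HSPA8, HSPH1, DNAJB1, HSPB1, HSPD1, HSPE1, HSP90AA1 and HSP90AB1. They were chosen by symbol, and each symbol matched 1 primary gene identifier among the 64253 genes listed in each count file. All 10 passed the filter on low counts, which left 20305 genes to test. RNA-seq counts were available for 8 libraries in 4 groups of 2 replicates. The human line HCT-8, from a colon tumour, is sensitive to 5-FU, a fluorinated pyrimidine used in chemotherapy, and HCT-8/FU is the 5-FU-resistant line paired with it. The groups called CM of HCT-8 and CM of HCT-8/FU are HCT-8 cells kept in conditioned medium (CM) that the named line had conditioned for 48 h. The sample descriptions give Ham's F12 with serum and antibiotics as the medium of all groups, whereas the methods of the study name RPMI. The libraries represent 1 sensitive and 1 resistant line, and no drug treatment is given for any of them. No source says whether replicates came from separate cultures, so the p-values measure the spread between these samples, which may be technical.

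Heat shock chaperones bind unfolded stretches of other proteins and help them fold, refold or reach a protease. In the cytosol, HSP70 proteins (the inducible pair HSPA1A and HSPA1B and the constitutive HSPA8) take clients from J-domain proteins such as DNAJB1 and give up their ADP with the help of HSPH1, while HSP90 proteins (HSP90AA1 and HSP90AB1) act later on kinases, steroid receptors and other clients. HSPD1 and its lid HSPE1 form the folding chamber of the mitochondrial matrix, and HSPB1 is a small heat shock protein that holds unfolded proteins without using ATP. Many of these genes are induced by the transcription factor HSF1, which binds heat shock elements, and cancer cells often express them at high levels without heat.

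Total counts on genes ran from 5804124 to 34881349 per library. HCT-8 replicate 1, HCT-8/FU replicate 2 and CM of HCT-8 replicate 1 were the shallow libraries, and in these 20.0% to 29.6% of the records were not aligned, against 3.58% to 4.43% in the other 5 libraries. The 8 colon epithelial markers summed to between 8585 and 10569 CPM (counts scaled to the total of the library) in every library. KRT8 had 4720 to 5869 CPM, KRT18 1911 to 2738 and EPCAM 298 to 502, whereas KRT20 had 4.79 to 16.9. The 5 fibroblast markers summed to between 12.5 and 22.3 CPM. Of these, COL1A1 had 8.19 to 13.8 CPM and PDGFRB 4.35 to 9.04, with COL1A2 at 0. The 4 leukocyte markers summed to at most 1.84 CPM, with PTPRC and CD3E at 0. The 3 endothelial markers summed to at most 2.45 CPM. Fold changes followed the GC content of the genes, with a Spearman coefficient across 19857 genes of -0.397 for HCT-8/FU against HCT-8, -0.398 for CM of HCT-8/FU versus CM of HCT-8, 0.301 for CM of HCT-8 versus HCT-8, and -0.142 for CM of HCT-8/FU versus HCT-8. These coefficients run across genes, which are not independent, and carry no p-value.

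The counts measure the 10 genes with unequal certainty, because some share sequence with other genes and records aligned to more than 1 place were not counted. HSPA1A (chromosome 6, 31815543 to 31817946, GRCh38) and HSPA1B (chromosome 6, 31827738 to 31830254) are neighbouring copies whose transcripts were identical in 90.7% of aligned positions. Of all windows of 150 bases, the read length, 69.6% in the HSPA1A transcript and 70.1% in the HSPA1B transcript also occurred in another gene. Their counts therefore rest on the remaining stretches, and how reads were divided between the copies is uncertain. The same share was 0% for HSPA8, HSPH1, DNAJB1, HSPB1, HSP90AA1 and HSP90AB1, 0.0477% for HSPD1 and 10.8% for HSPE1. Counts on listed pseudogenes amounted to at most 0.155% of the member's own count for HSPA8, 0.0307% for DNAJB1, 0.443% for HSPB1, 1.19% for HSPD1, 0.883% for HSP90AA1 and 0.332% for HSP90AB1, and to 3.12% to 24.3% for HSPE1. The pseudogenes with the most counts were HSPD1P1 with 793 over the 8 libraries, HSP90AB3P with 493, HSP90AA2P with 439, HSPE1P2 with 78, HSPA8P15 with 67, HSPB1P2 with 42 and DNAJB1P1 with 1.

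HSPE1 (chromosome 2, 197500140 to 197503449) was the member measured least well. Its 557-base main transcript shares 192 bases with exons of the readthrough gene HSPE1-MOB4, and 55.4% of its 150-base windows and 87.6% of its 300-base windows touch those bases, where a fragment fits both genes and is set aside as ambiguous. HSPE1 had between 62 and 270 counts per library, against 4426 to 27102 for its partner HSPD1. The level of HSPE1 given here may therefore be that of only a part of its fragments. How large that part was could not be measured from the counts. Counts on its pseudogenes were 3.12% and 5.56% of its own in HCT-8 and 12.0% to 24.3% in the other groups. This share thus differed in each comparison of HSPE1 against HCT-8.

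Heat shock elements are inverted repeats of the letters GAA, and their letters were searched in RefSeq promoter windows (GRCh38.p14, 250 bases before to 50 after an annotated start). The 2-unit letters GAANNTTC or TTCNNGAA, on both strands and with overlaps counted, stood in 13.5% of 35116 windows, and the 3-unit letters, which add NNGAA or NNTTC to these so that GAA and TTC alternate, in 0.49%. Of the 16 windows of the 10 chaperone genes, 9 held the 2-unit letters and 4 the 3-unit letters. The 9 windows belonged to 8 genes, and HSPH1 and HSPE1 had no match in theirs. The stretches printed here are those of the inducible HSP70 pair, of DNAJB1 and of the HSP90 pair, which carry most of the differences between HCT-8/FU and HCT-8. Each is printed along the strand of its gene, 5′ to 3′, with every base of a 2-unit match in capitals.
HSPA1A, chr6:31815427-31815454, plus strand: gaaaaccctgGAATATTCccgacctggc
HSPA1B, chr6:31827623-31827650, plus strand: gaaacccctgGAATATTCccgacctggc
DNAJB1, chr19:14518427-14518484, minus strand: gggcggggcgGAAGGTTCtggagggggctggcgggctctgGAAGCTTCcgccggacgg
HSP90AA1, chr14:102087095-102087142, minus strand: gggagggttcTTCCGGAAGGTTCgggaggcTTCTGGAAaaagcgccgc
HSP90AB1, chr6:44247768-44247853, plus strand: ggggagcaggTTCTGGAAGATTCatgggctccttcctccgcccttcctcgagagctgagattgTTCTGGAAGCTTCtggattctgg
The HSPA1A and HSPA1B windows were identical in 92.0% of aligned positions, and both held the letters GAATATTC about 100 bases before the start. Of these 5 genes, HSP90AA1 and HSP90AB1 held the 3-unit letters, and HSPA1A, HSPA1B and DNAJB1 held the 2-unit letters only. A match of letters is a description of the window and does not show that a factor bound there.

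Levels are given below as CPM after TMM normalization, which scales each library by its trimmed mean of log ratios to a reference library. Between genes they were compared as CPM per kb of annotated exonic sequence, the union of the exons of all transcripts, so that a gene with many rarely used exons reads low. On that scale HSP90AB1 was the most abundant of the 10 genes in HCT-8, at 496.3 ± 14.9 CPM per kb (SD, n = 2), followed by HSPA8 at 167 ± 16.1 and HSPD1 at 111 ± 7.82. HSPB1 stood at 90.2 ± 3.33, HSP90AA1 at 61.5 ± 5.38 and HSPA1B at 55.0 ± 3.62 CPM per kb. The lowest levels were those of HSPA1A, at 7.12 ± 0.853, and HSPE1, at 4.50 ± 0.172. The lengths include stretches shared with other genes, so HSPA1A, HSPA1B and HSPE1 may read low on this scale.

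**Figure D1:**
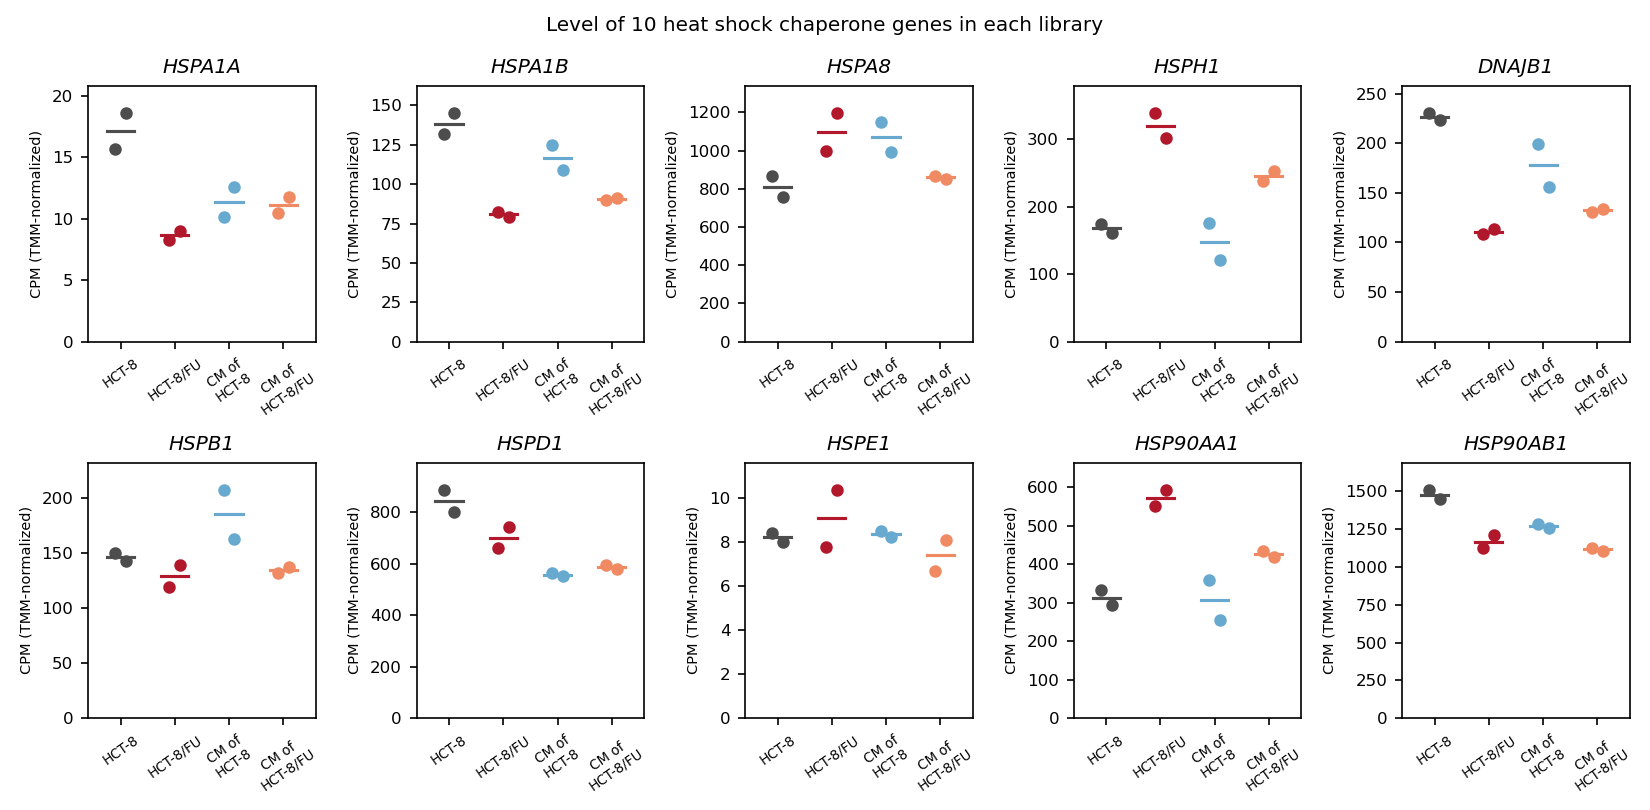
Level of each of the 10 chaperone genes in CPM after TMM normalization (vertical axes, linear, from 0), by group, with 1 point per library and a line at the mean of the 2 replicates. HSPA1B and DNAJB1 are highest in HCT-8 and lowest in HCT-8/FU, whereas HSPH1 and HSP90AA1 are highest in HCT-8/FU.

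The first comparison, HCT-8/FU against HCT-8, asks how the chaperones differ between the resistant and the sensitive line. HSPA1A, HSPA1B and DNAJB1 fell, HSPH1 and HSP90AA1 rose, and the other 5 genes stayed within 1.5-fold. A gene was called when the adjusted p of edgeR's quasi-likelihood test (Benjamini-Hochberg, over all genes tested) was at most 0.05 and the log2 fold change at least 0.58 in size, which is about 1.5-fold. Of the 10 genes, 2 were called higher and 3 lower, beside 13.2% and 8.12% of all genes tested. These background shares became 15.6% and 5.87% when TMM took CM of HCT-8 replicate 2 as its reference, and 7.12% and 8.72% after correcting for the GC content and length of the genes. With HSPA1A and HSPA1B summed into 1 gene, the count of genes called lower was 2. The median log2 fold change was -0.23 over the 10 genes and 0.01 over all genes tested. HSPA8, HSPD1 and HSP90AB1 passed the adjusted p alone, with log2 fold changes of 0.44, -0.27 and -0.34, which brought the counts at that rule to 3 higher and 5 lower beside 18.6% and 18.1% of all genes tested.

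In HCT-8 cells given CM of HCT-8/FU, compared with those given CM of HCT-8, HSPH1 alone was called, and it was higher. The counts were thus 1 higher and 0 lower of 10, beside 7.97% and 1.28% of all genes tested, and 2.67% and 2.31% after the GC and length correction. At the adjusted p alone, 2 genes were higher (HSPH1 and HSP90AA1) and 4 lower (HSPA1B, HSPA8, DNAJB1 and HSPB1), beside 11.2% and 8.49% of all genes tested. The median log2 fold change was -0.18 over the 10 genes and -0.06 over all genes tested. This comparison shares no library with that of the lines. Here and below it is called the comparison between the media.

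CM of HCT-8 versus HCT-8 compares cells kept in medium conditioned by their own line with cells that were not. Here HSPA1A and HSPD1 were called lower, while no member was called higher. With the 3 shallow libraries left out together neither was called, at -0.56 for HSPA1A and -0.54 for HSPD1. The background was 3.86% higher and 4.29% lower, or 3.04% and 5.36% with the size factors of DESeq2. CM of HCT-8/FU compared with HCT-8 gave 0 genes higher and 3 lower (HSPA1A, HSPA1B and DNAJB1), beside 7.16% and 3.28% of all genes tested, which became 9.14% and 2.12% with the other TMM reference and 4.16% and 4.85% after the GC and length correction. At the adjusted p alone there were 2 genes higher and 5 lower in each of these comparisons. Their backgrounds at that rule were 9.04% higher and 10.4% lower for CM of HCT-8, and 13.0% and 11.7% for CM of HCT-8/FU. Both comparisons use the same HCT-8 libraries as the comparison of the lines, so the values of these 3 comparisons are not independent of each other.

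**Figure D2:**
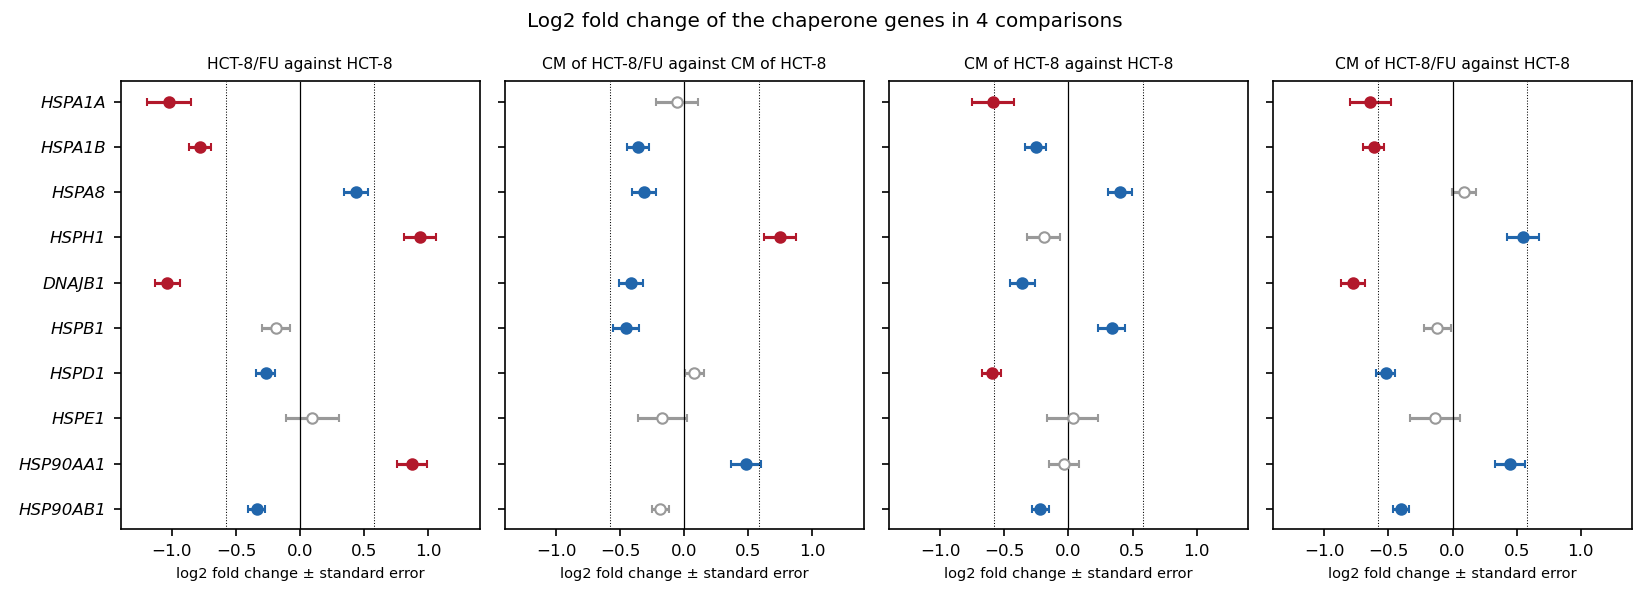
Log2 fold change (horizontal axes) of the 10 chaperone genes in 4 comparisons, with bars of 1 standard error. Red points were called, blue points passed the adjusted p alone, open grey points passed neither, and dotted lines mark 0.58 in either direction. HSPA1A, HSPA1B and DNAJB1 lie left of the dotted line in the first and the last panel.

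DNAJB1 (chromosome 19, 14514769 to 14560391, minus strand), the J-domain protein that delivers clients to inducible HSP70, had the lowest adjusted p of the 10 genes between the lines. It stood at 230.0 and 223 CPM in HCT-8 and at 108 and 113 CPM in HCT-8/FU, so that the resistant line held 0.488 of the level of the sensitive line. The log2 fold change was -1.04 ± 0.10 (SE) with an adjusted p of 1.1e-06 in edgeR's test. Cells under CM of HCT-8 had 199 and 156 CPM, and cells under CM of HCT-8/FU had 131 and 134 CPM, which puts both groups between the lines without overlap. DNAJB1 was lower by a log2 fold change of -0.42 ± 0.10 between these media (edgeR's adjusted p = 0.0060), which is below the fold threshold, and by -0.77 ± 0.10 under CM of HCT-8/FU versus HCT-8 (edgeR's adjusted p = 4.1e-05). Between the media it was -0.59, past that threshold, when CM of HCT-8 replicate 2 was left out and -0.24 when replicate 1 was, and leaving out the first library under the resistant line's medium raised edgeR's adjusted p to 0.065. Of its exonic bases 6.41% lie opposite exons of TECR, and since no source gives the strand setting of the counting, reads of these bases cannot be told apart.

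HSPA1B, a stress-inducible HSP70, followed the same order of groups. Its level was 132 and 145 CPM in HCT-8, 125 and 109 CPM under CM of HCT-8, 90.0 and 91.3 CPM under CM of HCT-8/FU, and 82.2 and 79.4 CPM in HCT-8/FU. No neighbours in this order overlapped, although HCT-8 and CM of HCT-8 came close. HSPA1B fell by 0.78 on the log2 scale in HCT-8/FU (SE 0.09, edgeR's adjusted p = 5.1e-06) and by 0.62 under CM of HCT-8/FU versus HCT-8 (SE 0.08, edgeR's adjusted p = 9.0e-05), a call that was lost without HCT-8 replicate 2 (-0.55). Between the media its log2 fold change was -0.36 ± 0.08 (edgeR's adjusted p = 0.0066) and between CM of HCT-8 and HCT-8 it was -0.26 ± 0.08 (edgeR's adjusted p = 0.046), both below the fold threshold. The first missed the adjusted p without either library of the resistant line's medium (edgeR's adjusted p = 0.086 and 0.064). The second missed it in 7 of the 8 fits that left out 1 library, with adjusted p of up to 0.22 in edgeR's test, and was -0.17 without the second library of CM of HCT-8.

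HSPA1A, the second inducible copy, was counted at a far lower level than HSPA1B. It had 15.7 and 18.6 CPM in HCT-8 against 8.31 and 9.03 CPM in HCT-8/FU, and the groups did not overlap. Cells under CM of HCT-8 had 10.1 and 12.5 CPM and cells under CM of HCT-8/FU had 10.5 and 11.8 CPM, so that the conditioned groups overlapped each other and lay below HCT-8. HSPA1A fell by 1.02 on the log2 scale in HCT-8/FU (SE 0.17, edgeR's adjusted p = 0.00026), by 0.59 under CM of HCT-8 (SE 0.17, edgeR's adjusted p = 0.021) and by 0.64 under CM of HCT-8/FU (SE 0.16, edgeR's adjusted p = 0.0080), each against HCT-8. Between the media its log2 fold change was -0.05 ± 0.16 (edgeR's adjusted p = 0.86). With the reads of both copies summed into 1 gene, the log2 fold change was -0.80 in HCT-8/FU, -0.62 under CM of HCT-8/FU and -0.29 under CM of HCT-8, each against HCT-8, and -0.33 between the media. The call of HSPA1A under CM of HCT-8 was lost when the copies were summed, without HCT-8 replicate 2 (-0.51) and when CM of HCT-8 replicate 1 was left out (-0.48), and that under CM of HCT-8/FU without HCT-8 replicate 2 (-0.50) and also when the first library of CM of HCT-8/FU was left out (-0.55).

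HSPA8 (chromosome 11, 123057489 to 123063230, minus strand), the constitutive HSP70 of the cytosol, had another order of groups than the inducible copies. It had 866 and 756 CPM in HCT-8, 998 and 1195 CPM in HCT-8/FU, 1149.6 and 995 CPM under CM of HCT-8, and 869 and 853 CPM under CM of HCT-8/FU. The resistant line and CM of HCT-8 were high and overlapped each other, and the remaining groups were low and overlapped each other. Its log2 fold change was 0.44 ± 0.09 in HCT-8/FU (edgeR's adjusted p = 0.0018) and 0.40 ± 0.09 under CM of HCT-8 (edgeR's adjusted p = 0.0069), each against HCT-8, and -0.32 ± 0.09 between the media (edgeR's adjusted p = 0.027). None of these reached the fold threshold. Without HCT-8 replicate 2 all 3 missed the adjusted p, at 0.31, 0.24 and -0.26 (edgeR's adjusted p = 0.092, 0.26 and 0.12). The value between the media was -0.21 without CM of HCT-8 replicate 1 (edgeR's adjusted p = 0.090), and it also missed without either library of the resistant line's medium, with adjusted p of 0.12 and 0.16 in edgeR's test. The small nucleolar RNA genes SNORD14C and SNORD14D lie in annotated exons of HSPA8 and cover 1.81% and 1.79% of them.

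HSPH1 (chromosome 13, 31134973 to 31162388, minus strand), an HSP110 protein that exchanges the nucleotide of HSP70, rose both in the resistant line and, between the media, in that of the resistant line. The resistant line had 338 and 302 CPM and HCT-8 had 175 and 162 CPM, a log2 fold change of 0.94 ± 0.13 (edgeR's adjusted p = 3.3e-05). In CM of HCT-8/FU it had 238 and 253 CPM, and under CM of HCT-8 176 and 121 CPM, a log2 fold change of 0.74 ± 0.13 (edgeR's adjusted p = 0.00060). The replicates of CM of HCT-8 differed more than those of any other group, and the shallower of them, with 176 CPM, lay close to the HCT-8 libraries. Between the media the log2 fold change was 0.49, below the fold threshold, when CM of HCT-8 replicate 2 was left out and 1.03 when replicate 1 was. HSPH1 has the lowest GC content of the 10 genes, 38.1%, and after the GC and length correction its log2 fold change was 0.32 in the comparison of the lines (edgeR's adjusted p = 0.047) and 0.16 between the media (edgeR's adjusted p = 0.43), below the fold threshold in each. In CM of HCT-8/FU versus HCT-8 the log2 fold change was 0.55 ± 0.13 (edgeR's adjusted p = 0.0046), and leaving out HCT-8 replicate 1 (0.60) or the first library of CM of HCT-8/FU (0.59) took it past the fold threshold, whereas without HCT-8 replicate 2 it was 0.48 (edgeR's adjusted p = 0.10).

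The cytosolic HSP90 genes moved apart. HSP90AA1 (chromosome 14, 102080742 to 102139699, minus strand), the stress-inducible isoform, had 333 and 294 CPM in HCT-8 and 553 and 594 CPM in HCT-8/FU, which did not overlap. Its log2 fold change was 0.87 ± 0.12 with an adjusted p of 3.2e-05 in edgeR's test, and 0.80 after the GC and length correction, where it stayed called. Cells under CM of HCT-8 had 359 and 256 CPM, on either side of HCT-8, and cells under CM of HCT-8/FU had 434 and 419 CPM. The difference between the media was 0.48 ± 0.12 on the log2 scale (edgeR's adjusted p = 0.0091), below the fold threshold, and leaving out CM of HCT-8 replicate 1 made it 0.74 and leaving out replicate 2 of that group made it 0.25. Without the first library of the resistant line's medium its adjusted p in edgeR's test was 0.056. Of its exonic bases 3.87% lie opposite exons of WDR20.

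HSP90AB1 (chromosome 6, 44246166 to 44253888), the constitutive isoform, was highest in HCT-8, with 1511 and 1448 CPM. It had 1128 and 1210.5 CPM in HCT-8/FU, 1283 and 1258 CPM under CM of HCT-8, and 1125 and 1109 CPM under CM of HCT-8/FU. All groups lay below HCT-8 without overlap. The log2 fold changes against HCT-8 were -0.34 ± 0.06 for HCT-8/FU, -0.22 ± 0.06 for CM of HCT-8 and -0.40 ± 0.06 for CM of HCT-8/FU, with adjusted p of 0.00058, 0.024 and 0.00030 in edgeR's test, none past the fold threshold. That for CM of HCT-8 missed the adjusted p without HCT-8 replicate 1 (edgeR's adjusted p = 0.14) and without either library of the resistant line's medium (0.066 and 0.067). Between the media it was -0.19 ± 0.06 (edgeR's adjusted p = 0.052).

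HSPD1 (chromosome 2, 197486584 to 197516737, minus strand), the mitochondrial chaperonin, was lower in both conditioned media than in either line. Its level was 886 and 801 CPM in HCT-8 and 661 and 739.8 CPM in HCT-8/FU. Cells under CM of HCT-8 had 562 and 551 CPM and cells under CM of HCT-8/FU had 596 and 579 CPM, and no neighbours in the order of the 4 groups overlapped. HSPD1 fell by 0.60 on the log2 scale under CM of HCT-8 (SE 0.07, edgeR's adjusted p = 7.3e-05), just past the fold threshold, and its log2 fold change under CM of HCT-8/FU was -0.52 ± 0.07 (edgeR's adjusted p = 0.00013), just short of it. The first became -0.53 without HCT-8 replicate 1, short of the threshold, and the second -0.60 without HCT-8 replicate 2, past it. Between the media it was 0.08 ± 0.07 (edgeR's adjusted p = 0.53), and between the lines -0.27 ± 0.07 (edgeR's adjusted p = 0.0099), where replicate 1 of either line, when left out, raised edgeR's adjusted p to 0.093 and 0.097. With the GC and length correction these values against HCT-8 were -0.46 under CM of HCT-8, -0.68 under CM of HCT-8/FU and -0.61 in HCT-8/FU, so that HSPD1 was then called in the last 2 comparisons and not in the first.

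HSPE1, which encodes the lid of the HSPD1 chamber and shares its promoter region head to head, passed the test in no comparison. It had 8.43 and 7.98 CPM in HCT-8, 7.78 and 10.4 CPM in HCT-8/FU, 8.52 and 8.21 CPM under CM of HCT-8, and 6.70 and 8.11 CPM under CM of HCT-8/FU. Ordered by their means, from HCT-8/FU over CM of HCT-8 and HCT-8 down to CM of HCT-8/FU, neighbouring groups overlapped. The log2 fold change was 0.10 ± 0.20 between the lines (edgeR's adjusted p = 0.76) and -0.17 ± 0.19 between the media (edgeR's adjusted p = 0.60). At this depth a change of the size seen for HSPD1 was within about 3 standard errors.

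HSPB1 (chromosome 7, 76302673 to 76304295), the small heat shock protein of the set, was highest under CM of HCT-8. It had 150.2 and 143 CPM in HCT-8, 119 and 139.6 CPM in HCT-8/FU, 208 and 163 CPM under CM of HCT-8, and 132 and 137 CPM under CM of HCT-8/FU. The groups of the resistant line and of its medium overlapped. Between the media the log2 fold change was -0.46 ± 0.10 (edgeR's adjusted p = 0.0055), and between CM of HCT-8 and HCT-8 it was 0.34 ± 0.10 (edgeR's adjusted p = 0.035), both below the fold threshold. The first of these was -0.62, past it, when CM of HCT-8 replicate 2 was left out and -0.28 when replicate 1 was, and its adjusted p in edgeR's test was 0.059 without the first library under the resistant line's medium. The second was 0.51 and 0.16 in the same 2 fits and 0.23 without HCT-8 replicate 2, and its adjusted p in edgeR's test missed 0.05 without either HCT-8 library (0.10 and 0.39), without the first library of CM of HCT-8 (0.20) and without that of the resistant line's medium (0.051).

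The difference between the resistant line's fold change and that of its conditioned medium was tested directly, as HCT-8/FU against HCT-8 minus CM of HCT-8/FU versus CM of HCT-8. At an adjusted p of at most 0.05, with no fold threshold, 1 of the 10 genes had a positive difference and 4 had a negative one, beside 5.15% and 6.42% of all genes tested. HSPA8 had a difference of 0.75 ± 0.13 on the log2 scale (edgeR's adjusted p = 0.0017). It was higher in HCT-8/FU than in HCT-8, and lower under CM of HCT-8/FU than under CM of HCT-8. Under CM of HCT-8/FU versus HCT-8, HSPA8 had a log2 fold change of 0.09 ± 0.09 (edgeR's adjusted p = 0.56). The differences of HSPA1A (-0.97 ± 0.24), DNAJB1 (-0.62 ± 0.14), HSPA1B (-0.42 ± 0.12) and HSPD1 (-0.35 ± 0.10) were negative, with adjusted p of 0.016, 0.0079, 0.035 and 0.045 in edgeR's test. Those of HSPA1A and HSPA1B depend on how reads were divided between the copies. With both copies summed, the log2 fold change between the media was -0.33, against -0.05 for HSPA1A alone. HSPH1 (0.19 ± 0.18) and HSP90AA1 (0.39 ± 0.17) did not pass, with adjusted p of 0.58 and 0.15, so no difference between their fold changes in the lines and in the media was shown. Without HCT-8 replicate 2 the difference of HSPA8 was 0.57 (edgeR's adjusted p = 0.054), and without CM of HCT-8 replicate 2 HSPH1 (0.44), HSPB1 (0.42) and HSP90AA1 (0.61) had positive differences that passed. The difference of HSPA1A did not pass without HCT-8 replicate 2, HCT-8/FU replicate 1 or the second library under the resistant line's medium (-0.91 to -0.89, edgeR's adjusted p of 0.070 to 0.10). That of HSPA1B did not pass without HCT-8 replicate 2 or without any single library of HCT-8/FU or of its medium (-0.46 to -0.41, edgeR's adjusted p of 0.068 to 0.14). That of HSPD1 did not pass without replicate 1 of either line or without either library of the resistant line's medium (-0.38 to -0.28, edgeR's adjusted p of 0.13 to 0.18). The difference of DNAJB1 passed in all 8 fits that left out 1 library.

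The correction for GC content and length removes any part of a fold change that follows either property across genes. In the comparison of the lines it moved HSPH1 from 0.94 to 0.32 and HSPA1B, with a GC content of 58.8%, from -0.78 to -0.56, just below the fold threshold. It left HSPA1A (59.8% GC) at -0.80, DNAJB1 (55.7% GC) at -0.90 and HSP90AA1 (45.5% GC) at 0.80, all still called. HSPD1 (42.3% GC) moved from -0.27 to -0.61 and was then called lower. The corrected counts were therefore 1 gene higher and 3 lower, of which HSPA1A and DNAJB1 were also among the uncorrected calls. Between the media the correction left no member called.

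**Figure D3:**
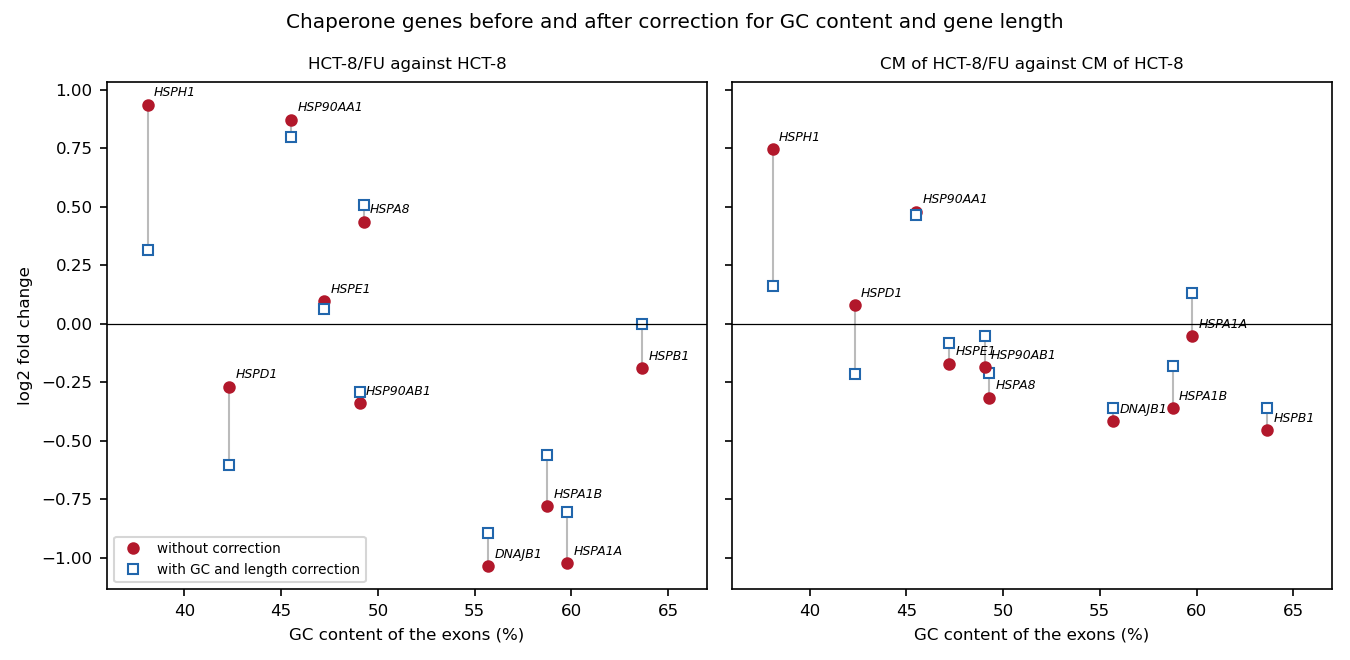
Log2 fold change (vertical axis) of the 10 chaperone genes against the GC content of their exons in percent (horizontal axis), without (red circles) and with (open blue squares) the GC and length correction, in HCT-8/FU against HCT-8 (left) and CM of HCT-8/FU versus CM of HCT-8 (right). HSPH1, at 38.1% GC, moves most, from 0.94 to 0.32 on the left and from 0.74 to 0.16 on the right.

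Ratios within a library do not depend on the scaling between libraries. They were not corrected for GC content, which fold changes followed and which differs within these pairs. HSPA8 has a GC content of 49.3%, against 38.1% for HSPH1 and 55.7% for DNAJB1. HSP90AA1 per kb was 0.129 and 0.119 of HSP90AB1 in the HCT-8 libraries, 0.286 and 0.287 in HCT-8/FU, 0.164 and 0.119 under CM of HCT-8, and 0.226 and 0.221 under CM of HCT-8/FU. The resistant line and the cells in its medium thus lay above all libraries of the other groups. The inducible pair summed, HSPA1A and HSPA1B, was 0.33 and 0.419 of HSPA8 in HCT-8, 0.176 and 0.143 in the resistant line, 0.227 and 0.237 under CM of HCT-8, and 0.224 and 0.234 under CM of HCT-8/FU. Here HCT-8 stood above every other library, HCT-8/FU below, and the conditioned groups overlapped. Reads that fit both copies may be missing from the level of the pair, whereas its length is the full one, so this ratio may read low. DNAJB1 to HSPA8 gave mean ratios of 0.166 ± 0.0125 (SD, n = 2) in HCT-8, 0.0602 ± 0.00564 in HCT-8/FU, 0.0978 ± 0.00698 under CM of HCT-8 and 0.0911 ± 0.00286 under CM of HCT-8/FU. HSPH1 to HSPA8 gave 0.120 ± 0.00501, 0.171 ± 0.0353, 0.0793 ± 0.0129 and 0.165 ± 0.00949 in the same order, and its replicates in HCT-8/FU were 0.196 and 0.146. HSPD1 to HSPE1 was 25.1 and 23.99 in HCT-8, 20.3 and 17.1 in the resistant line, 15.8 and 16.0 under CM of HCT-8 and 21.2 and 17.1 under CM of HCT-8/FU, and carries the uncounted fragments of HSPE1. Comparisons of 2 against 2 values by exact permutation (two-sided) cannot go below a p of 0.33, so these ratios carry no test.

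**Figure D4:**
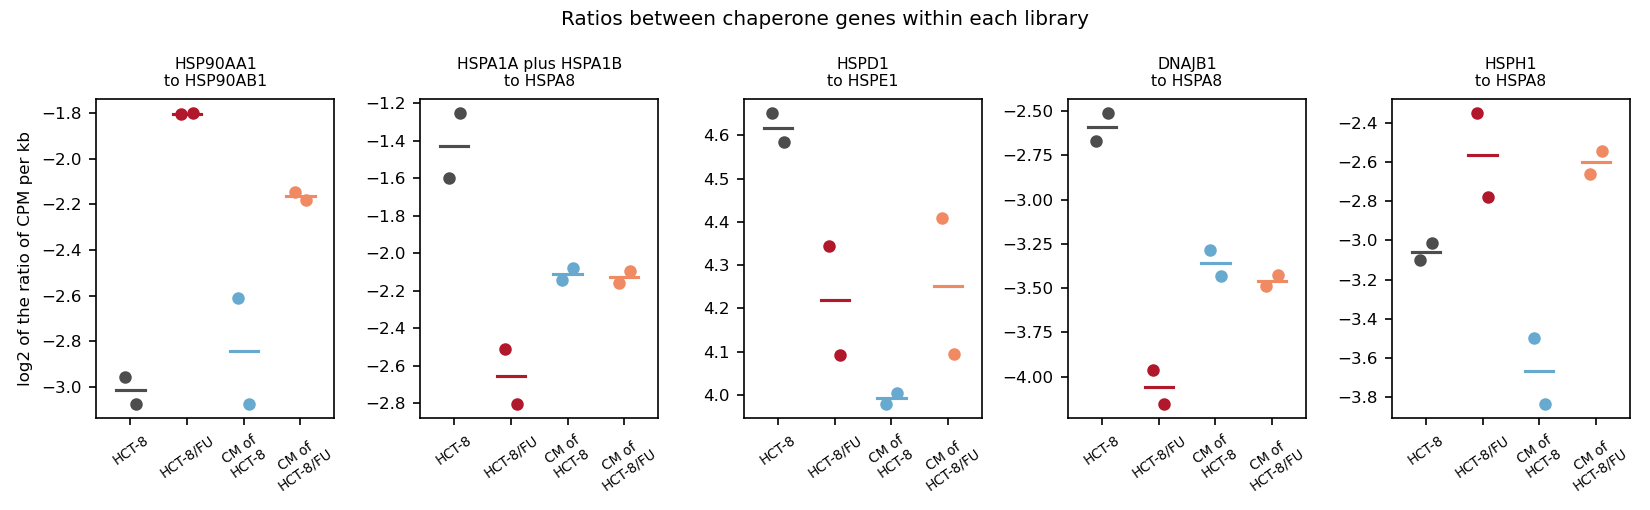
Log2 ratio of CPM per kb between chaperone genes within each library (vertical axes, each with its own range), by group, with 1 point per library and a line at the mean of the 2 replicates. The ratio of HSP90AA1 to HSP90AB1 is highest in HCT-8/FU, and that of DNAJB1 to HSPA8 is highest in HCT-8 and lowest in HCT-8/FU.

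Among 22 other HSP70 partners, 4 were called higher and 4 lower in HCT-8/FU against HCT-8, beside 13.2% and 8.12% of all genes tested, with a median log2 fold change of -0.01. For these and the following lists, values are given without the GC and length correction, under which HSPH1 lost its call. How the correction would move the listed genes was not tested. HSPA4L, an HSP110 relative of HSPH1, had the highest change of those whose mean reached 5 CPM. It had 10.3 and 10.97 CPM in HCT-8, 27.2 and 25.9 CPM in HCT-8/FU, 8.86 and 8.44 under CM of HCT-8, and 22.9 and 18.7 under CM of HCT-8/FU, so that the groups linked to the resistant line lay above the others without overlap. Its log2 fold change was 1.32 ± 0.15 between the lines, 1.27 ± 0.15 between the media (edgeR's adjusted p = 4.8e-06 and 1.7e-05) and 0.96 ± 0.14 under CM of HCT-8/FU versus HCT-8. DNAJB5, a J-domain relative of DNAJB1, had the lowest, with -1.27 ± 0.17 between the lines, -0.43 ± 0.16 between the media (edgeR's adjusted p = 2.3e-05 and 0.064) and -0.98 ± 0.15 under CM of HCT-8/FU versus HCT-8. BAG1, a nucleotide exchange factor of HSP70, was the list's only gene called higher under CM of HCT-8 versus HCT-8, at 0.61 ± 0.08. Of all genes tested, 3.86% were called higher in that comparison. HSPA6, a strictly inducible HSP70 below that level and named after its values were seen, had 8.29 and 7.75 CPM in HCT-8 and 0.997 and 1.84 CPM in HCT-8/FU, a log2 fold change of -2.72 ± 0.30 (edgeR's adjusted p = 5.0e-06). It lay between these groups in both conditioned media, at 3.72 to 4.03 CPM.

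Of 17 HSP90 co-chaperones, 3 were called higher and 2 lower between the lines, and 2 higher and 0 lower between the media. The shares of all genes tested were 13.2% and 8.12% between the lines and 7.97% and 1.28% between the media. RPAP3, a TPR-domain partner of HSP90, rose by 0.97 ± 0.20 between the lines and 0.92 ± 0.20 between the media on the log2 scale (edgeR's adjusted p = 0.0011 and 0.0036). Its HCT-8 libraries lay apart, at 36.2 and 20.3 CPM, against 52.1 and 51.8 CPM in HCT-8/FU. CDC37, which brings kinases to HSP90, fell by 0.76 in HCT-8/FU (SE 0.10, edgeR's adjusted p = 2.4e-05), from 215 and 204 CPM in HCT-8 to 112 and 139 CPM. Its relative CDC37L1 was the only one called under CM of HCT-8 versus HCT-8, at -0.94 ± 0.27. It had 17.9 and 10.3 CPM in HCT-8, and 5.98 and 7.61 CPM under CM of HCT-8. Of all genes tested, 3.86% were called higher and 4.29% lower in that comparison. Under CM of HCT-8/FU versus HCT-8 no co-chaperone was called, beside 7.16% higher and 3.28% lower of all genes tested.

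Of 12 genes for mitochondrial protein folding and proteases, 0 were called higher and 3 lower both in HCT-8/FU and under CM of HCT-8/FU, each against HCT-8, and none in the other comparisons. Of all genes tested, 13.2% were called higher and 8.12% lower in the first of these, and 7.16% and 3.28% in the second. The shares were 7.97% and 1.28% between the media, and 3.86% and 4.29% under CM of HCT-8 versus HCT-8. The 3 genes called lower were HSPA9, DNAJA3 and LONP1 in each case. LONP1, a matrix protease, had 444 and 422 CPM in HCT-8, 185 and 184 CPM in HCT-8/FU, 340 and 301 under CM of HCT-8, and 271 and 277 under CM of HCT-8/FU, with a log2 fold change of -1.23 ± 0.08 between the lines (edgeR's adjusted p = 2.6e-08). HSPA9, the HSP70 of the matrix, had 1309 and 1162 CPM in HCT-8 and 725 and 788 CPM in HCT-8/FU, a log2 fold change of -0.71 ± 0.08 (edgeR's adjusted p = 6.2e-06). In CM of HCT-8/FU versus HCT-8 the values were -0.66 ± 0.07 for LONP1, -0.68 ± 0.08 for HSPA9 and -0.76 ± 0.07 for DNAJA3, the J-domain partner of HSPA9.

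The 14 subunits of the cytosolic chaperonin CCT and of prefoldin included 1 called lower between the lines (PFDN2, -0.97 ± 0.11), 1 lower between the media (PFDN5, -0.67 ± 0.12) and 2 lower under CM of HCT-8/FU versus HCT-8, with PFDN2 at -0.88 ± 0.10. None was called higher. Of all genes tested, 8.12%, 1.28% and 3.28% were called lower in these comparisons, and 13.2%, 7.97% and 7.16% higher. Under CM of HCT-8 versus HCT-8 none of the subunits was called, beside 3.86% higher and 4.29% lower of all genes tested. Of 13 heat shock factors and other small heat shock proteins, 12 were listed and 9 tested, since HSPB2, HSPB3 and CRYAA had at most 6 counts in any library. Of the 9 tested, 0 were called in any comparison, beside the same shares of all genes tested. HSF1, the main activator of heat shock genes, had 103 and 120 CPM in HCT-8, 79.9 in both HCT-8/FU libraries, 122 and 117 CPM under CM of HCT-8, and 103 and 98.9 CPM under CM of HCT-8/FU. Its log2 fold change between the lines was -0.49 ± 0.09 (edgeR's adjusted p = 0.00038), below the fold threshold, and between the media -0.24 ± 0.08 (edgeR's adjusted p = 0.051).

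**Figure D5:**
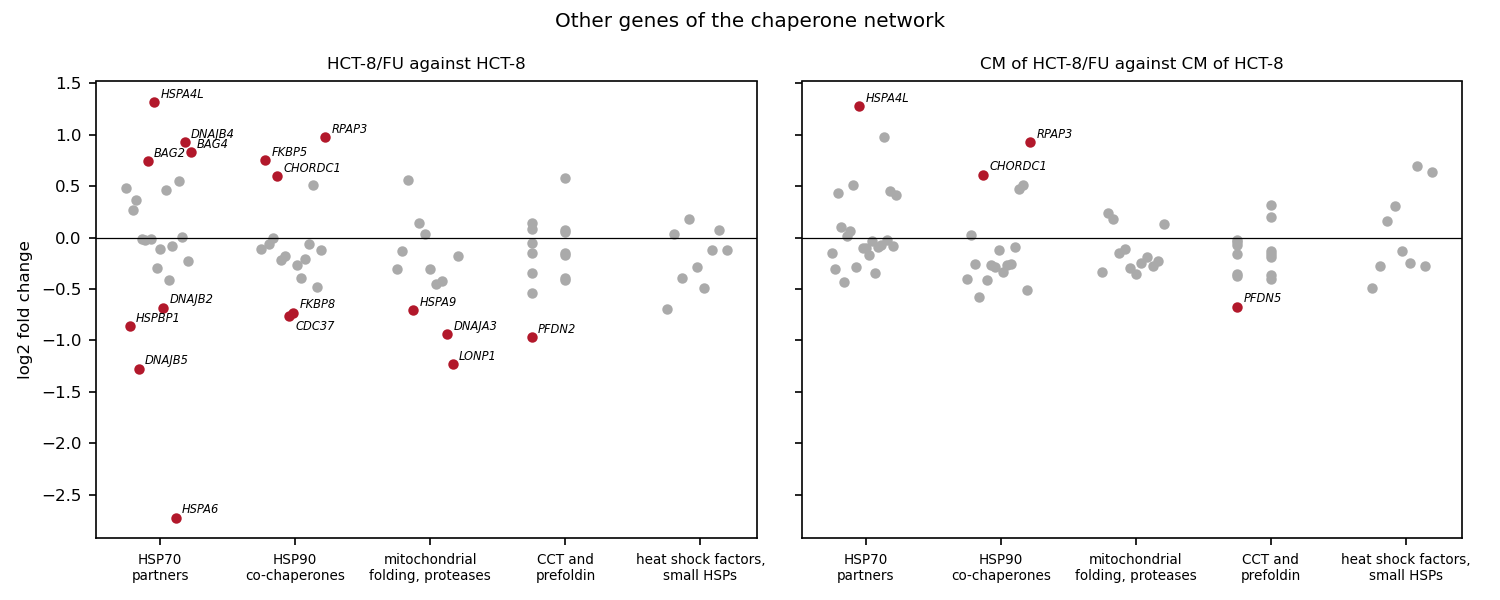
Log2 fold change (vertical axis) of the tested genes of 5 lists of the chaperone network (horizontal axis) in HCT-8/FU against HCT-8 (left) and CM of HCT-8/FU versus CM of HCT-8 (right), with 1 point per gene. Values are without the GC and length correction, and called genes are red and named. HSPA4L and RPAP3 are called higher in both panels, and the 3 called mitochondrial genes on the left all lie below 0.

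Likeness of pattern was described by Pearson's r of log2 CPM over the 8 libraries, among the 12500 genes whose mean reached 5 CPM. Libraries of 1 group share their condition and depth, so r is a description with no p. HSPA1B and DNAJB1 were the most alike pair among the 10 genes, with r = 0.984. This ranked DNAJB1 at 19 of all genes for HSPA1B, and HSPA1B at 24 for DNAJB1. HSPH1 and HSP90AA1 followed with r = 0.972, which ranked HSPH1 at 119 for HSP90AA1 and HSP90AA1 at 317 for HSPH1. The values behind r were not corrected for GC content. HSPA1A and HSPA1B, the near-identical copies, had r = 0.835. HSPA1B and HSP90AA1 ran in opposite directions, with r = -0.821. For 9 of the 10 members, the single genes most like them were ALG12 for HSPA1A (r = 0.991), DHX16 for HSPA1B (0.994), SUZ12 for HSPH1 (0.998), EIF1 for DNAJB1 (0.997), EPS8L3 for HSPB1 (0.993), G3BP2 for HSPD1 (0.992), PDHA1 for HSPE1 (0.950), STXBP3 for HSP90AA1 (0.996) and POLR1D for HSP90AB1 (0.988).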

How the data were processed

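The authors aligned 150-base read pairs to GRCh38 with HISAT2 and counted them per Ensembl gene with HTSeq 0.11.2. The submitters' processing notes also name SAMtools 1.18 and DESeq2 1.30.0. The deposited values are raw counts. Lines naming no gene were left out of library sizes. Records without a feature made up 33.7% to 49.6% of a library, ambiguous ones 1.15% to 1.57%, those of low quality 2.20% to 5.77%, unaligned ones 3.58% to 29.6% and those aligned more than once 2.24% to 3.48%. The authors' 2 DESeq2 tables of their own comparisons (means, fold changes, p-values) were not used.

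Symbols, GC contents and exonic lengths are those of GENCODE 44, in which 56105 of the 64253 identifiers were found. Counts were fitted in R 4.3.3 with edgeR 4.0.16 (glmQLFit and glmQLFTest, group means of all 8 libraries, TMM with HCT-8 replicate 2 as reference, filterByExpr, Benjamini-Hochberg adjustment). Standard errors are the size of the log2 fold change over the square root of F. The correction for GC content and length subtracts per-library splines with 5 degrees of freedom. Alternatives were DESeq2 1.42.0 or its size factors, another TMM reference, other filters, groups compared only, a replicate block, the GC and length correction, a model term for the 3 libraries in which over 15% of the records failed to align, copies summed, FDR alone, and leaving out each library. Leaving out those 3 libraries together was added after seeing the data. Members, gene lists and named genes (the called gene of each list with the highest and the lowest log2 fold change, at a mean of at least 5 CPM, with HSF1 and HSPA9) were chosen with earlier results of these data known.

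On simulated data for HCT-8/FU against HCT-8 (19763 genes), 38.8% of genes changed 1.5-fold, 83.6% of those changed 2-fold and 92.4% of those changed 4-fold were called, with 5 false calls. With a simulated GC trend, the correction brought 4519 false calls to 4. A single item is not reported here.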

Additional observations from a re-analysis of the deposited data

Results flagged for a closer look

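For 5 of the 10 chaperone genes, the fold change between the lines differed from that between the media by a test of the difference itself (adjusted p of at most 0.05 in edgeR's test). HSPA1A (-0.97 on the log2 scale) had 8.31 and 9.03 CPM in HCT-8/FU against 15.7 and 18.6 in HCT-8, while the conditioned groups overlapped. How reads were divided between HSPA1A and HSPA1B is uncertain. With both copies summed, the log2 fold change between the media was -0.33, against -0.05 for HSPA1A alone. For HSPA1A the call was lost without HCT-8 replicate 2 and in 2 other fits that left out a library, with an adjusted p of up to 0.10. HSPA8 had a difference of 0.75, with opposite directions in the lines and in the media, which was lost without HCT-8 replicate 2 (0.57, adjusted p of 0.054 in edgeR's test), and DNAJB1 one of -0.62, which passed in all 19 alternatives. HSPA1B (-0.42) and HSPD1 (-0.35) lay close to the threshold, and their calls were lost in 7 of 18 and 8 of 19 alternatives. The summed level of the colon epithelial markers was 9649.5 and 10569 CPM in CM of HCT-8 and 8585 to 8939.5 CPM in the other groups, and its part in these differences was not tested.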

How the results depend on the processing

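Of the values of single members, 899 kept their direction and their side of the threshold under the alternatives, 40 dropped below it, 21 moved past it and 25 changed sign. No sign changed among the values called in the report. In HCT-8/FU versus HCT-8 they were HSPB1 (0.00011 with the GC and length correction, 0.0011 with the replicate block as well) and HSPE1 (-0.043 without the 3 libraries with many records not aligned, and from -0.073 to 0.34 over the fits without 1 library). Between the media they were HSPA1A (0.031 with CM of HCT-8 replicate 2 as TMM reference, 0.031 with the groups compared only, 0.13 with the GC and length correction, 0.15 with the block as well, and from -0.17 to 0.14 without 1 library) and HSPD1 (-0.21 with the GC and length correction, with and without the block). In CM of HCT-8 versus HCT-8 they were HSPH1 (0.076 with that correction, 0.069 with the block as well, from -0.47 to 0.067 without 1 library), HSPE1 (-0.018 with the size factors of DESeq2, -0.019 with DESeq2, -0.041 and -0.038 with the correction without and with the block, from -0.086 to 0.061 without 1 library) and HSP90AA1 (from -0.29 to 0.20 without 1 library). In CM of HCT-8/FU versus HCT-8 it was HSPA8 (from -0.017 to 0.19 without 1 library), and in the difference between lines and media HSPH1 (from -0.094 to 0.44 without 1 library). The cause of these changes was not tested.

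The count of members called moved as follows. With the FDR alone, which drops the fold threshold, it was 5 lower between the lines, 2 higher and 4 lower between the media, 2 higher and 5 lower in CM of HCT-8, and 2 higher and 5 lower in CM of HCT-8/FU, the last pair against HCT-8. The GC and length correction, with or without the replicate block, gave a count of 1 higher between the lines, 0 higher between the media and 1 lower in CM of HCT-8, and with the block 2 negative differences between lines and media. In CM of HCT-8 the count was 1 lower with the groups compared only and 1 with the copies summed. Summing the copies also gave 2 lower between the lines. With CM of HCT-8 replicate 2 as TMM reference, CM of HCT-8/FU against HCT-8 had 1 higher and 1 lower. The term for libraries with many records not aligned gave a count of 2 higher between the media and 1 higher in CM of HCT-8/FU. Leaving out the 3 libraries gave 2 higher between the media, 0 lower in CM of HCT-8, 1 higher in CM of HCT-8/FU and 2 positive differences. Without a filter on low counts there were 2 positive differences. Leaving out 1 library at a time, the count ran from 0 to 2 higher and 0 to 2 lower between the media, from 1 to 2 lower in CM of HCT-8, from 0 to 1 higher in CM of HCT-8/FU, from 0 to 4 for positive and from 1 to 4 for negative differences. The lone sample of a group is then assumed to vary like the other groups. CM of HCT-8 replicate 2 gave the most of these: without it HSPH1 lost its call between the media, DNAJB1 and HSPB1 were called lower there, and 4 members had a positive difference.

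Deviations of samples with the same replicate number correlated between -0.12 and 0.13 over pairs of groups. Depth differed between replicates, and the shallow libraries carry different replicate numbers. The correlations therefore cannot show whether samples with the same number were cultured or prepared together. With the replicate block alone, the count was 2 higher and 3 lower between the lines, 1 higher between the media, 2 lower in CM of HCT-8, 3 lower in CM of HCT-8/FU, and 1 positive and 3 negative differences. Depth limits HSPE1 and HSPA1A most, with 62 and 54 counts in their lowest library.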
